A study of Mus musculus with 8 samples.

Results

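Cytochrome c oxidase is assembled with different versions of several small subunits in different tissues, and the 9 genes of its isoform pairs were followed here through UCP1-positive cells of 3 mouse fat depots. The genes were chosen by name: Cox7a1, Cox7a2 and Cox7a2l, Cox8b and Cox8a, Cox6a2 and Cox6a1, and Cox4i2 and Cox4i1. They are 9 of 22552 gene symbols in the data, and 7 of the 9 passed the filter on low values that left 8958 genes for testing. Cox6a2 and Cox4i2 did not pass.

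Cytochrome c oxidase, complex IV of the respiratory chain, passes electrons from cytochrome c to oxygen and pumps protons across the inner mitochondrial membrane. Its catalytic core is encoded in mitochondrial DNA, and the surrounding subunits are nuclear. Cox7a1, Cox8b and Cox6a2 encode the heart and skeletal muscle isoforms of their subunits, while Cox7a2, Cox8a and Cox6a1 encode the widely expressed ("liver") isoforms. Cox4i1 is the general isoform of subunit IV and Cox4i2 the isoform known from lung and from responses to low oxygen. Cox7a2l encodes a relative of the Cox7a subunits that joins complex IV to complex III in supercomplexes. In fat, Cox7a1 and Cox8b are commonly used as markers of brown and beige adipocytes.

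Every library held ribosome-bound RNA of females (strain label C57B/6 UCP1-TRAP). In such mice a GFP-tagged ribosomal protein is made only where Ucp1 is active, so that a rabbit anti-GFP antibody can retrieve the messages being translated there. Breeding took place at 30 °C, weaning into room temperature followed at 3 weeks of age, and cold exposure at 4 °C lasted 2 weeks, from 4 to 6 weeks of age. There were 3 libraries of inguinal white adipose tissue (inguinal WAT), 2 of perigonadal white adipose tissue (perigonadal WAT) and 3 of interscapular brown adipose tissue (BAT), and all groups had the same cold exposure. The labels do not say whether a library is 1 animal or a pool, so p-values measure the spread between these libraries only, which may be technical.

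In the files' build, mm9, each gene but Cox7a2l has 1 transcript. Cox7a1 lies at chr7:30969190-30971049 on the plus strand (4 exons) and Cox7a2 at chr9:79603048-79607660 on the minus strand (4 exons). Cox7a2l lies at chr17:83901257-83913673 (minus, 2 transcripts), Cox8b at chr7:148084841-148086345 (minus, 2 exons) and Cox8a at chr19:7289648-7292106 (minus, 2 exons). Cox6a2 lies at chr7:135348949-135349880 (minus, 3 exons), Cox6a1 at chr5:115795663-115798964 (minus, 3 exons), Cox4i2 at chr2:152579909-152590773 (plus, 5 exons) and Cox4i1 at chr8:123192190-123198109 (plus, 5 exons). The partners of a pair thus lie on different chromosomes throughout, while all 3 heart and muscle isoform genes lie on chromosome 7.

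The sequences of the pairs whose heart and muscle member was detected show how unlike the partners are. Coding sequences from GENCODE M21 are given 5′ to 3′ without the stop codon, with the longest run of bases shared by both partners in capitals:

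Cox7a1 coding sequence: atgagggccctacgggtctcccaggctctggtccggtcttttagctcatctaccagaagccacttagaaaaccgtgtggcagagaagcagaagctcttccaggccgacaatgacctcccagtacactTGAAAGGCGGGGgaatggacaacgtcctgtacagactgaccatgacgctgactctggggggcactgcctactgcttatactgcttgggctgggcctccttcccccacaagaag

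Cox7a2 coding sequence: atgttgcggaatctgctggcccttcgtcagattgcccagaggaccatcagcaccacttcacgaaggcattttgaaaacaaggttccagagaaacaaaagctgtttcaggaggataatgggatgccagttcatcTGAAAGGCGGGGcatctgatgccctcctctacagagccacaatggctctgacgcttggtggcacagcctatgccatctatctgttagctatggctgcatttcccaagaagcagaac

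Cox8b coding sequence: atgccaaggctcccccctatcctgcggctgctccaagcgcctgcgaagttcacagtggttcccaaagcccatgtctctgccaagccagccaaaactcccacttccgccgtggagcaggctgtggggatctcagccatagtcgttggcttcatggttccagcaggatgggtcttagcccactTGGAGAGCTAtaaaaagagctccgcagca

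Cox8a coding sequence: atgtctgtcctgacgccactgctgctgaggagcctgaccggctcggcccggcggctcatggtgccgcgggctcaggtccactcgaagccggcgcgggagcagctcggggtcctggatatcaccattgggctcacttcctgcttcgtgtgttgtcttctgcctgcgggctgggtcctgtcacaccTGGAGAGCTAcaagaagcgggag

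Cox7a1 and Cox7a2 shared 154 of 239 aligned coding bases (64.4%), with a longest shared run of 12. Cox8b and Cox8a shared 114 of 202 (56.4%), with a longest run of 10, the least alike of the 4 pairs. Cox6a2 and Cox6a1 shared 65.3% and Cox4i2 and Cox4i1 69.6%, with longest runs of 12 and 14 bases. No shared run over the whole transcripts was longer than these in any of the 4 pairs.

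The 250 bases before the start of 6 of the 9 genes were matched by symbol in the RefSeq promoter table (GRCm38.p6). Motifs searched on both strands were TATAAA, the ETS core CCGGAA, the NRF1 core GCGCATG, the estrogen-related receptor motif AAGGTCA, the myogenic E box CAGCTG, the CCAAT box and the CRE motif TGACG. No motif contains another, and matches on either strand are in capitals. The promoters of the same pairs are shown because their base composition differs between partners:

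Cox7a1 promoter, chr7:30183921-30184170, plus strand: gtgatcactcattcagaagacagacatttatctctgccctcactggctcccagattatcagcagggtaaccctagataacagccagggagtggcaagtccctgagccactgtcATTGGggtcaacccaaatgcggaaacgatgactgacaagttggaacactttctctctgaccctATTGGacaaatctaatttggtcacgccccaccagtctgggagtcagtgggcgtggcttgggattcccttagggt

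Cox7a2 promoter, chr9:79759854-79760103, minus strand: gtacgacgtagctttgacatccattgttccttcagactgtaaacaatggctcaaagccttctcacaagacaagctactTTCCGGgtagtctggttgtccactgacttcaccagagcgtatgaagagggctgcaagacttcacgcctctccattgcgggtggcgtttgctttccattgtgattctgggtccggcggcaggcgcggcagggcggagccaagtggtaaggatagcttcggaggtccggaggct

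Cox8b promoter, chr7:140900447-140900696, minus strand: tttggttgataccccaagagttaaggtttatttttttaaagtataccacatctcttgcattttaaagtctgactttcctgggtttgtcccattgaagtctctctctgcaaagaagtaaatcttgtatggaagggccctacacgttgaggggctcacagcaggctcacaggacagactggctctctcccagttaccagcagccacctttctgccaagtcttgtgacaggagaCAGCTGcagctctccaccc

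Cox8a promoter, chr19:7217617-7217866, minus strand: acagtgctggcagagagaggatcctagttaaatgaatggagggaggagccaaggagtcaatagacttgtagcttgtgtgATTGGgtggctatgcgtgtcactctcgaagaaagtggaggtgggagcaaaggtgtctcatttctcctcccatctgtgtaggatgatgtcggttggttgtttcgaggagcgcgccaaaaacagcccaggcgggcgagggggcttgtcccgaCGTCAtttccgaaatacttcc

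The heart and muscle member of either pair had the fewer CpG dinucleotides in this window. Cox8b held 1 CpG and Cox8a 11, and Cox7a1 held 4 and Cox7a2 14, against a median of 6 over 32841 promoters of the same length. Cox7a2l held 13 and Cox6a1 26. The Cox8b window had 1 match to CAGCTG, beginning 19 bases before the start, a motif found in 13% of all promoters. The Cox7a1 window had 2 CCAAT boxes (33.9% of promoters hold at least 1), and the Cox7a2 window 1 ETS core (12%). The Cox8a window had 1 CCAAT box and 1 CRE motif (17.8%). The Cox6a1 window, not printed, had an NRF1 core on both strands of one palindrome (3.24%), an ETS core and a CCAAT box. No TATAAA (12.4%) or AAGGTCA (4.08%) was found in the 6 windows.

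Levels are given in FPKM, fragment numbers divided by the length of the transcript and the size of the library, summed over the transcripts of a gene. FPKM totals over all genes ran from 75925 (inguinal replicate 3) to 206549 (perigonadal replicate 1). The fragments recovered at single-transcript genes ran from 198434 to 890576 in the same libraries. Inguinal replicate 3 was the lowest of all 8 libraries for each of the 7 tested members and for Ucp1, so levels are followed below by quotients within each library. In bulk RNA of this kind, fewer cells of a type and less RNA per cell cannot be told apart.

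Cox8b, the heart and muscle form of subunit VIII, was the most abundant member in BAT. It measured 1728, 1896 and 1332 FPKM in BAT replicates 1 to 3, 866, 767 and 343 in inguinal replicates 1 to 3, and 850 and 835 in the perigonadal replicates. All 5 WAT libraries lay below all 3 BAT libraries, and by mean FPKM the gene ranked 3 of all genes in BAT, 12 in inguinal and 13 in perigonadal WAT. Its ubiquitous partner Cox8a measured 726, 877 and 620 FPKM in BAT, 468, 464 and 205 in inguinal WAT, and 533 and 481 in perigonadal WAT. These groups did not overlap either, with a narrower gap than for Cox8b.

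Cox7a1, the heart and muscle form of subunit VIIa, measured 1014, 1161 and 854 FPKM in BAT. It measured 450, 542 and 263 in inguinal and 396 and 548 in perigonadal WAT, again with no WAT library reaching a BAT library. Cox7a2, the liver form, measured 263, 300.3 and 246 FPKM in BAT, 206, 205 and 121 in inguinal WAT, and 172 and 167 in perigonadal WAT. Both Cox7a genes were thus lower in every WAT library, and the heart and muscle form was the more abundant one in all 8 libraries. The supercomplex factor Cox7a2l was the least abundant of the 7 tested members in every library, at 36.2 to 62.5 FPKM in inguinal WAT, 55.6 and 68.4 in perigonadal WAT, and 49.5 to 91.5 in BAT, where the groups overlapped.

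Cox6a1 and Cox4i1, which pair with isoforms that were barely detected, had overlapping levels in WAT and BAT. Cox6a1 measured 740, 772 and 495 FPKM in inguinal WAT, 907 and 834 in perigonadal WAT, and 886, 979 and 749 in BAT. Cox4i1 measured 879, 786 and 508 FPKM in inguinal WAT, 858 and 713 in perigonadal WAT, and 1029, 973 and 832 in BAT. WAT and BAT libraries overlapped for both genes in these deposited values. After the libraries were scaled by the median ratio of their genes, Cox4i1 was narrowly apart (468 to 933 FPKM in WAT, 939 to 1110 in BAT). Cox6a1 still overlapped on that scale (495 to 909 and 845 to 1085).

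Cox6a2 was listed at 0 in 7 libraries and at 1.10 FPKM, 1 fragment, in inguinal replicate 3. Cox4i2 was listed at 0 in 7 libraries and at 0.669 FPKM, also 1 fragment, in BAT replicate 3. A count of 0 allows up to 3 fragments, which over the libraries at 0 is 1.72 to 3.00 FPKM for Cox6a2 and 1.47 to 2.68 for Cox4i2. These limits cover counting error only. At that limit, in the 7 libraries at 0 of either gene, Cox6a2 would be at most 0.00364 of Cox6a1 and Cox4i2 at most 0.00510 of Cox4i1. With 1 fragment, the quotient was 0.00223 for Cox6a2 in inguinal replicate 3 (95% counting interval 0.000392 to 0.0126) and 0.000804 for Cox4i2 in BAT replicate 3 (0.000142 to 0.00456). Any depot difference of these 2 isoforms was therefore not detectable at this depth. Of the 3 heart and muscle isoform genes, Cox7a1 and Cox8b were thus among the most abundant messages and Cox6a2 was at or under 1 fragment.

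The order of the members by level differed between the depots. In all 3 BAT libraries Cox8b was highest, while in inguinal WAT Cox4i1 was highest in each library. In perigonadal WAT, Cox6a1 led in replicate 1 and Cox8b led narrowly in replicate 2. By mean ± SD, inguinal WAT ran from Cox4i1 (724 ± 193 FPKM, n = 3) through Cox6a1 (669 ± 151), Cox8b (659 ± 278), Cox7a1 (418 ± 142) and Cox8a (379 ± 151) to Cox7a2 (178 ± 49.1) and Cox7a2l (51.6 ± 13.7). The first 3 of these neighbours, and likewise Cox7a1 and Cox8a, were closer than their SDs. In BAT the order was Cox8b (1652 ± 289, n = 3), Cox7a1 (1009.7 ± 153), Cox4i1 (945 ± 102), Cox6a1 (871 ± 116), Cox8a (741 ± 129), Cox7a2 (270 ± 27.9) and Cox7a2l (72.7 ± 21.3). There, Cox8b stood above Cox7a1 by more than either SD, and so did Cox6a1 above Cox8a, while Cox7a1 and Cox4i1, and Cox4i1 and Cox6a1, were closer than their SDs. In perigonadal WAT (n = 2) the means were 870 ± 52.0 for Cox6a1, 843 ± 10.8 for Cox8b, 785 ± 102 for Cox4i1, 507 ± 36.7 for Cox8a, 472 ± 107 for Cox7a1, 170 ± 4.15 for Cox7a2 and 62.0 ± 9.05 for Cox7a2l.

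**Figure D1:**
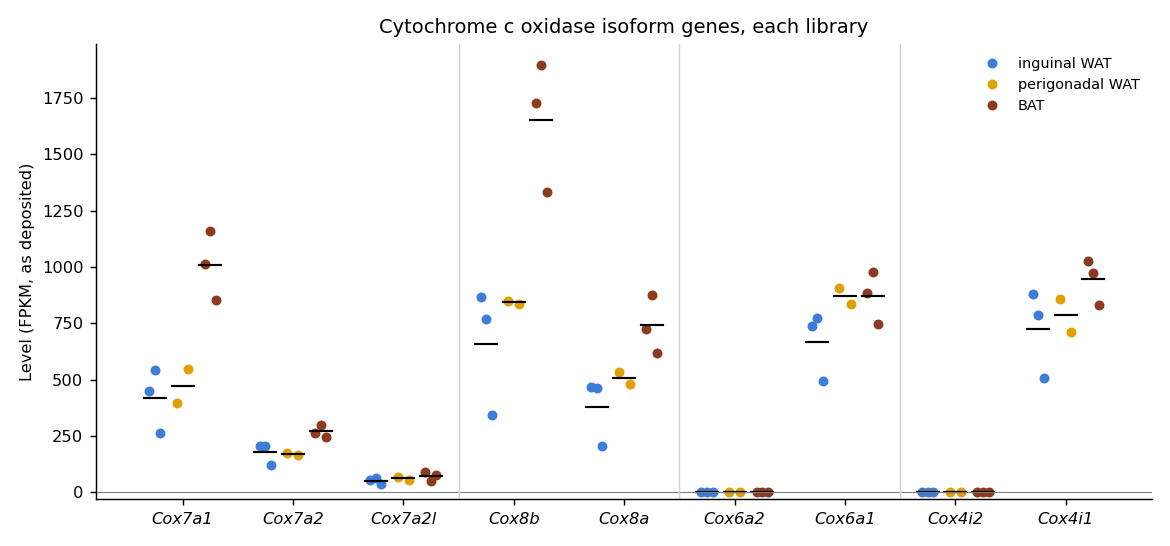
Level of each isoform gene in each library (vertical axis, FPKM as deposited; points, libraries; black lines, group means; vertical grey lines separate the subunit families). Cox8b, Cox7a1, Cox8a and Cox7a2 lie higher in all 3 BAT libraries than in all 5 WAT libraries, Cox6a1 and Cox4i1 overlap, and Cox6a2 and Cox4i2 lie at or near 0.

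In inguinal WAT against BAT, limma on log2(FPKM + 1) with Benjamini-Hochberg adjustment over 8958 genes called 3 of the 7 tested members lower and none higher (0.469% and 1.73% of all tested genes). Cox8b was 2.51-fold higher in BAT by mean FPKM (log2 fold change -1.42, SE 0.28, adjusted p = 0.000298). Cox7a1 was 2.41-fold higher in BAT (-1.32, SE 0.29, adjusted p = 0.00188), and Cox8a 1.96-fold (-1.05, SE 0.30, adjusted p = 0.0400). The median log2 fold change was 0.032 over all tested genes and -0.64 over the 7 members, all of which were above 1 FPKM in all 8 libraries. The other 4 did not pass: Cox7a2 had -0.64 (adjusted p = 0.625), Cox7a2l -0.48 (0.921), Cox4i1 -0.41 (0.831) and Cox6a1 -0.40 (0.852). The 3 called members and Cox7a2, 4 in all, had all inguinal libraries below all BAT libraries, which held for 5.37% of all tested genes. Without BAT replicate 2 the Cox7a1 call was lost (adjusted p = 0.0540). Cox8a no longer passed when any single BAT library was left out (0.189, 0.399 and 0.0773 for replicates 1, 2 and 3). Without inguinal replicate 3, the library with the fewest fragments, all 3 calls held with smaller changes: -1.002 for Cox8b, -1.02 for Cox7a1 and -0.65 for Cox8a (adjusted p = 0.0439).

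In perigonadal WAT against BAT the same fit called only Cox7a1 lower (2.14-fold higher in BAT by mean FPKM, log2 fold change -1.10, SE 0.32, adjusted p = 0.0282), where 0.268% of all tested genes were called lower and 4.91% higher. Both perigonadal libraries lay below all BAT libraries for 4 members (Cox7a1, Cox7a2, Cox8a and Cox8b) and for 3.72% of all tested genes. Cox8b was 1.96-fold higher in BAT and just missed the threshold (-0.95, SE 0.31, adjusted p = 0.0514). Cox7a2 had -0.66 (adjusted p = 0.275), Cox8a -0.53 (0.325), Cox4i1 -0.27 (0.573), Cox7a2l -0.19 (0.782) and Cox6a1 0.0060 (0.993). These values sit on a shift of the whole table, since the median over all tested genes was 0.52 and that over the 7 members -0.53. When the libraries were first scaled by the median ratio of their genes, the median over all genes was 0.021, the calls over all genes went from 440 higher and 24 lower to 234 and 313 (3.49% lower), and 5 members were called lower. These were Cox7a1 (-1.78, adjusted p = 0.00896), Cox8b (-1.64, 0.00382), Cox7a2 (-1.34, 0.00802), Cox8a (-1.22, 0.0110) and Cox4i1 (-0.95, 0.0279). On unscaled values Cox7a1 no longer passed when perigonadal replicate 1 (adjusted p = 0.715) or any single BAT library was left out (0.121, 0.177 and 0.0627 for replicates 1, 2 and 3). The count of members called rose to 2 without inguinal replicate 2 and to 4 without inguinal replicate 3.

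Scaling left the inguinal comparison much as it was, with the same 3 members called: Cox8b (-1.43, adjusted p = 0.00445), Cox7a1 (-1.33, 0.0217) and Cox8a (-1.06, 0.0137). On that scale 268 genes were called higher and 146 lower (1.63%), against 155 and 42 without scaling. The 2 comparisons share the 3 BAT libraries and are given side by side, not as independent results.

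**Figure D2:**
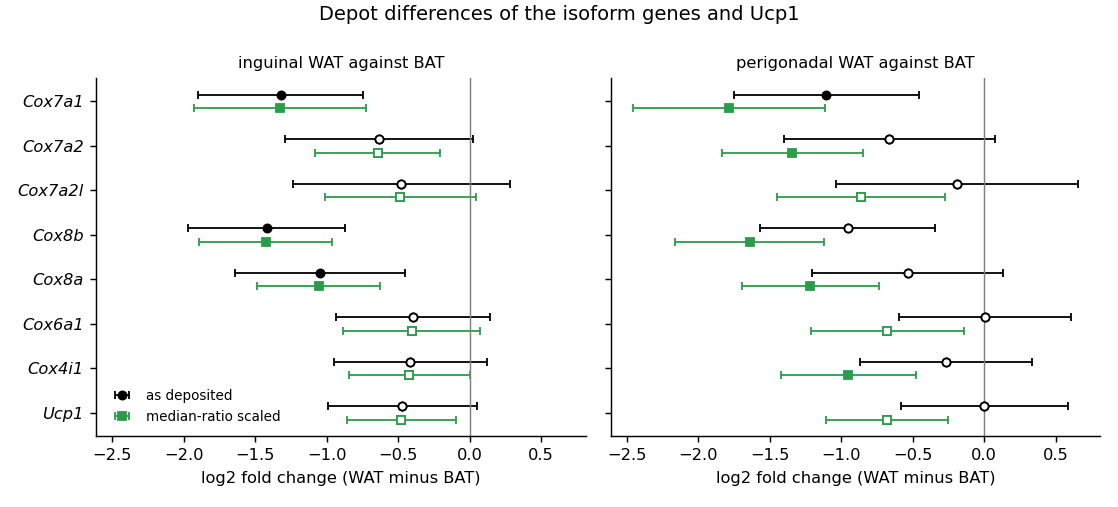
Log2 fold change of the 7 tested isoform genes and Ucp1, white depot minus BAT, with 95% confidence intervals (horizontal axis; circles, FPKM as deposited; squares, median-ratio scaled; filled, adjusted p under 0.05 in limma; open, not). Cox8b and Cox7a1 lie farthest below 0 in both panels, and scaling moves all perigonadal values down.

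Between the white depots no member passed the test (0 of 7 by limma, 0 at an unadjusted p under 0.05), where 0.703% of all genes were called in either direction. The 7 values ran from -0.51 for Cox8a (SE 0.34, adjusted p = 0.422) to 0.025 for Cox7a2 (SE 0.37, 0.966), beside a median of -0.50 over all genes. After median-ratio scaling all 7 were above 0, from 0.16 for Cox8a to 0.70 for Cox7a2 (adjusted p = 0.387), and 2, Cox7a2 and Cox4i1, had an unadjusted p under 0.05. The direction between the white depots therefore flips with the scaling for 6 of the 7 members.

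The balance of the isoforms was read as a quotient of FPKM within each library, in which library scaling cancels. Cox7a1/Cox7a2 was 3.85, 3.86 and 3.48 in BAT, 2.18, 2.64 and 2.18 in inguinal WAT, and 2.30 and 3.29 in perigonadal WAT. The heart and muscle form predominated in all libraries, more so in BAT, and no WAT quotient reached the lowest BAT quotient. The 95% counting interval of perigonadal replicate 2 (2.79 to 3.87) nevertheless covered values of all 3 BAT libraries. Cox8b/Cox8a was 2.38, 2.16 and 2.15 in BAT, 1.85, 1.65 and 1.67 in inguinal WAT, and 1.60 and 1.74 in perigonadal WAT. Here too BAT lay above all WAT libraries, with the closest pair at 1.85 (interval 1.64 to 2.09) and 2.15 (1.93 to 2.39).

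By mean quotient, BAT exceeded the 5 WAT libraries 1.48-fold for Cox7a1/Cox7a2 (3.73 against 2.52) and 1.31-fold for Cox8b/Cox8a (2.23 against 1.70). The log2 differences, WAT minus BAT, were -0.59 and -0.39. An exact two-sided permutation test over the 56 arrangements of 5 WAT and 3 BAT libraries gave p = 0.0357 for each, the smallest p this design allows, and adjusted p = 0.0714 over the 4 pairs. Across the 3 depots (560 arrangements) the exact permutation p was 0.0464 for Cox7a1/Cox7a2 and 0.0250 for Cox8b/Cox8a, with adjusted p = 0.0929 for both. Neither quotient passed after adjustment, although the groups did not overlap. Between WAT and BAT both p-values were already the smallest possible. Full separation of these pairs alone could therefore not bring the adjusted p under 0.05, and that adjusted result decides nothing. For Cox6a2/Cox6a1 and Cox4i2/Cox4i1 the exact permutation test between WAT and BAT gave p = 0.321 and 0.750, with a numerator of at most 1 fragment in any library. With a numerator of 0, the tested value is set by the added 0.1 FPKM and the level of the partner. Library scale does not cancel there, so these p-values cannot speak to isoform balance.

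The size of a quotient depends on transcript length, since the files' transcripts of Cox7a1 (366 nt) and Cox8b (363 nt) are shorter than those of Cox7a2 (754 nt) and Cox8a (545 nt). In recovered fragments, not corrected for length, Cox7a1/Cox7a2 was 2.18 to 2.40 in BAT and 1.38 to 1.94 in WAT. Cox8b/Cox8a was 1.33 to 1.58 in BAT and 0.969 to 1.15 in WAT. WAT and BAT stayed apart in both quotients on this scale. The length correction was not the same in every library. For Cox7a1/Cox7a2, inguinal replicates 2 and 3 had FPKM quotients of 2.64 and 2.18 but fragment quotients of 1.54 and 1.59. Library scale thus cancels in a quotient of FPKM, but a difference in length correction does not.

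**Figure D3:**
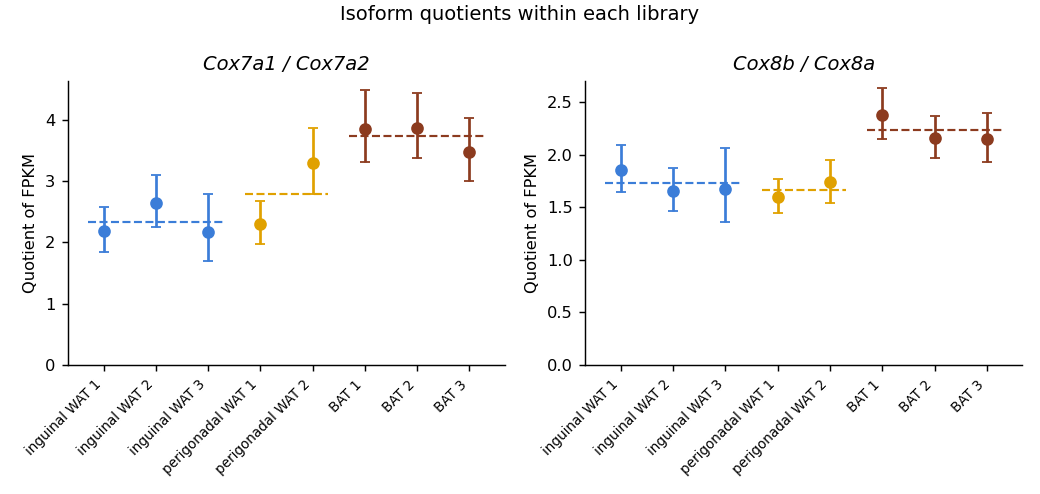
Quotient of FPKM of the heart and muscle isoform to its ubiquitous partner in each library (vertical axis; points, libraries; bars, 95% Wilson intervals for counting error; dashed lines, group means). BAT lies at 3.48 to 3.86 for Cox7a1/Cox7a2 and 2.15 to 2.38 for Cox8b/Cox8a, above the WAT ranges of 2.18 to 3.29 and 1.60 to 1.85.

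Ucp1, whose promoter defines the cells studied, gave a second yardstick within the library. Its own level was 1104 ± 447 FPKM in inguinal WAT, 1438 ± 220 in perigonadal WAT and 1433 ± 132 in BAT, and it passed the test in neither comparison with BAT (adjusted p = 0.697 and 1). Those values are as deposited. After median-ratio scaling Ucp1 was 869 to 1166 FPKM in the 5 WAT libraries and 1482 to 1746 in BAT, without overlap. Its log2 fold changes were then -0.48 in inguinal and -0.68 in perigonadal WAT (adjusted p = 0.155 and 0.0675 by limma). The quotients below are thus relative to a gene that itself lay lower in WAT on that scale. Cox8b per Ucp1 was 0.534 to 0.651 in the 5 WAT libraries and 1.01 to 1.23 in BAT, a 1.94-fold difference of means. Cox7a1 per Ucp1 was 0.249 to 0.444 in WAT and 0.651 to 0.737 in BAT (1.89-fold), and Cox8a per Ucp1 0.330 to 0.375 and 0.472 to 0.557 (1.48-fold). WAT and BAT libraries did not overlap for these 3 members. They overlapped for the other 4: the WAT and BAT means were 0.149 and 0.188 for Cox7a2, 0.0470 and 0.0517 for Cox7a2l, 0.635 and 0.661 for Cox4i1, and 0.634 and 0.607 for Cox6a1.

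Against Cox4i1, a subunit with no expressed alternative here, the picture was similar. Cox4i1 itself was called lower in perigonadal WAT after median-ratio scaling (-0.95, adjusted p = 0.0279 by limma). Cox8b/Cox4i1 was 0.674 to 1.17 in WAT and 1.60 to 1.95 in BAT, and Cox7a1/Cox4i1 0.462 to 0.768 and 0.986 to 1.19. Cox8a/Cox4i1 (0.403 to 0.675 against 0.706 to 0.901) was also apart, while Cox7a2/Cox4i1 (0.201 to 0.262 against 0.256 to 0.309) and Cox6a1/Cox4i1 (0.841 to 1.17 against 0.861 to 1.01) overlapped. The quotient of the 2 heart and muscle genes to each other, Cox8b/Cox7a1, did not separate the tissues, at 1.30 to 2.15 in WAT and 1.56 to 1.70 in BAT. These quotients are descriptions and were not tested.

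**Figure D4:**
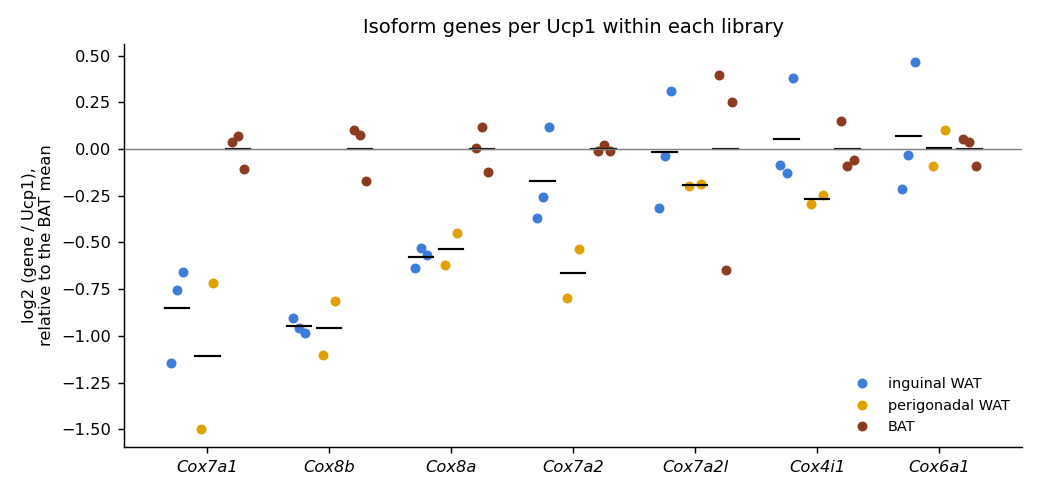
Each tested isoform gene per Ucp1 within each library, as a log2 difference from the BAT mean of that gene (vertical axis; points, libraries; black lines, group means). All 5 WAT libraries lie below all 3 BAT libraries for Cox7a1, Cox8b and Cox8a, and the tissues overlap for Cox7a2, Cox7a2l, Cox4i1 and Cox6a1.

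Of 10 common subunit genes of complex IV, those without a partner among the pairs together with 3 isoforms known from other tissues (Cox6b2, Cox7b2 and Cox8c), 8 were tested. None was called in inguinal WAT against BAT by limma, where 5 had an unadjusted p under 0.05 (Cox5a, Cox5b, Cox6c, Cox7c and Ndufa4), and none in perigonadal WAT, where 1 did (Cox7c). All 8 were below 0 in the inguinal comparison, with a median log2 fold change of -0.73, and 6 of 8 in the perigonadal one, with a median of -0.36. Beside 4 of the 7 tested members in either comparison, 6 of these 8 genes had all inguinal libraries below all BAT libraries. Both perigonadal libraries lay below all BAT libraries for 6 of the 8 as well (5.37% and 3.72% of all tested genes). After scaling, 2 were called lower in inguinal WAT (Cox7c, -0.99, adjusted p = 0.0293, and Ndufa4, -0.83, 0.0235) and 6 in perigonadal WAT, which besides these included Cox5a, Cox5b, Cox6c and Cox7b. Without inguinal replicate 2 and 3 in turn, 1 and 2 were called in inguinal WAT, and without inguinal replicate 3, 3 were called in perigonadal WAT. The genes in these counts were named after their values were seen. The most abundant, Cox6b1, which lies on the intermembrane side of the enzyme, measured 561 ± 88.8 FPKM in inguinal WAT (n = 3), 795 ± 60.6 in perigonadal WAT (n = 2) and 782 ± 108 in BAT (n = 3). Cox6c measured 432 ± 131, 480 ± 6.40 and 636 ± 95.9.

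Of 23 assembly factor genes, 22 were found and tested. None was called in inguinal WAT against BAT, where 2 had an unadjusted p under 0.05 (Cox17, and Pet117 in the other direction). Cox17, the copper chaperone that supplies the catalytic core, was called lower in perigonadal WAT, at 181 ± 7.37 FPKM (n = 2) against 395 ± 50.1 in BAT (n = 3; log2 fold change -1.11, SE 0.35, adjusted p = 0.0480 by limma). That call was lost without any one of perigonadal replicates 1 and 2 and BAT replicates 1 to 3 (adjusted p from 0.118 to 0.630), and without inguinal replicate 2 (0.0514). It was also lost with a pseudocount of 0.1 (0.0828), with no filter on low values (0.146) and when each gene was read from its most abundant transcript (0.0501). The call held in the other settings, with adjusted p from 0.000776 (without inguinal replicate 3) to 0.0420 (without inguinal replicate 1). Median-ratio scaling gave -1.79 (0.00556) and quantile normalization -1.38 (0.00192). In inguinal WAT Cox17 measured 217 ± 37.1 FPKM (-0.87, adjusted p = 0.205). Cox19, another copper-handling factor, measured 52.6 ± 19.5, 71.8 ± 20.1 and 53.0 ± 11 FPKM in inguinal WAT, perigonadal WAT and BAT. The list's median log2 fold change was -0.19 in the inguinal and 0.25 in the perigonadal comparison, below the all-gene medians of 0.032 and 0.52.

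Cytochrome c, complex III subunits and supercomplex factors made up a list of 9, of which 8 were tested and 0 called in either comparison, with 0 at an unadjusted p under 0.05. Their median log2 fold change was -0.37 in inguinal and 0.15 in perigonadal WAT against BAT, beside all-gene medians of 0.032 and 0.52. After median-ratio scaling the list medians were -0.38 and -0.53, with all 8 genes below 0 in both comparisons. On that scale 0 were called, and 1 in inguinal and 3 in perigonadal WAT had an unadjusted p under 0.05 by limma. The complex III subunit Uqcrfs1, the Rieske iron-sulfur protein, measured 292 ± 90.1 FPKM in inguinal WAT, 328 ± 11.1 in perigonadal WAT and 345 ± 18.1 in BAT. Uqcrc2, a core protein of the same complex, measured 266 ± 82.2, 330.4 ± 26.2 and 271 ± 11.7.

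Among 1764 tested genes with a mean of at least 10 FPKM, those with profiles most like Cox7a1 over the 8 libraries (Pearson r of scaled log2 values) included Cox7c (0.994), a common subunit of complex IV, Esrra (0.986), Txn2 (0.985) and Atp5j2 (0.985). Those most like Cox8b were Mrpl30 (0.994), Atox1 (0.989), Adipor1 (0.977), Ucp1 (0.977) and Lamp1 (0.976). Among the members, Cox8b and Cox8a had r = 0.995, Cox8b and Cox7a1 0.965, and Cox7a1 and Cox7a2 0.948. Cox8b was therefore as close to its own ubiquitous partner as to any gene outside the family. All points share 8 libraries and their scale factors (0.545 to 1.83), and these values are descriptions.

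Markers of muscle and of other cell types were read in the same libraries. Of 9 heart muscle markers, 8 (Myh6, Tnnt2, Tnni3, Myl2, Myl7, Nppa, Mybpc3 and Actc1) were at 0 in every library, and Ryr2 did not exceed 0.158 FPKM. Of 22 skeletal muscle markers, 7 were at 0 in every library (Myh7, Tnnt3, Tnnc2, Tnnt1, Pvalb, Tcap and Myoz1), and 15, 11 and 9 were at 0 in all inguinal, perigonadal and BAT libraries. The list summed to 11.9 to 18.0 FPKM in inguinal WAT, 11.3 to 26.5 in perigonadal WAT and 15.1 to 24.1 in BAT. Most of that sum was Myl1, at 9.73 to 24.3 FPKM over the 8 libraries. Myoglobin (Mb) was called lower in inguinal (log2 fold change -1.96, adjusted p = 0.000742) and perigonadal WAT (-1.70, adjusted p = 0.0115). It measured 3.33, 0.561 and 7.75 FPKM in BAT, 0 in all inguinal libraries, and 0 and 0.430 in perigonadal WAT. Only BAT replicates 1 and 3 reached the 1 FPKM of the filter, so Mb entered the test only through BAT. Its calls are in part set by that filter and are given as a description. After median-ratio scaling, 1 of the 3 tested skeletal muscle markers was called lower in inguinal WAT and 0 in perigonadal WAT. The other tested markers were not called on deposited values: in inguinal and perigonadal WAT, Myl1 had 0.11 and 0.20, and Acta1 -0.24 and 0.64. Mylpf, a fast muscle myosin light chain, was at 0 in all 5 WAT libraries and at 0.722, 0.687 and 1.40 FPKM in BAT.

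Markers of other cell types also moved with the depots. White adipocyte markers (6 genes, led in WAT by Car3 and Retn) summed to 116 to 159 FPKM in inguinal WAT, 263 to 706 in perigonadal WAT and 3.09 to 14.5 in BAT, with 2 of 6 at 0 in all BAT libraries. Of 4 tested, 2 were called higher in inguinal and 3 in perigonadal WAT against BAT, beside 1.73% and 4.91% of all tested genes. After median-ratio scaling, 2 were called higher in either comparison. Of the 6, 3 were below 1 FPKM in every BAT library. Any tested gene among these met the filter only through WAT, so its call is in part set by the filter. Markers of all adipocytes (6 genes, led by Fabp4) summed to 2634 to 5065, 5042 to 8000 and 3125 to 3712 FPKM, none at 0. Of these, 2 were called higher in perigonadal WAT on deposited values and 0 after scaling. Their median log2 fold change there was 0.85 as deposited, beside 0.52 over all tested genes, and 0.17 after scaling. Smooth muscle markers (8 genes, led in inguinal WAT by Acta2 and Tagln) summed to 43.1 to 137 FPKM in inguinal WAT, 8.83 to 15.1 in perigonadal WAT and 6.95 to 8.33 in BAT, and of these 1 was at 0 in both perigonadal and 3 in all BAT libraries. Mammary epithelial markers (9 genes, led in inguinal WAT by Expi) summed to 99.2 to 127, 1.88 to 3.10 and 7.02 to 22.0 FPKM, with 8 of 9 at 0 in all BAT libraries. The whole BAT sum was Csn3, whose mean there (14.0 FPKM) was near that in inguinal WAT (13.6). Endothelial markers (6 genes) summed to 1.04 to 4.19, 7.19 to 11.8 and 2.496 to 3.64 FPKM, and red blood cell markers (4 genes) to 0 to 1.26, 6.16 to 13.7 and 3.70 to 8.37. Macrophage markers (6 genes) summed to 3.39 to 5.22, 5.32 to 10.4 and 3.40 to 6.9995 FPKM, with BAT overlapping both white depots. Their part in the isoform differences was not tested.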

How the data were processed

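Ribosome-bound RNA was sequenced in 8 libraries, grouped by the tissue labels. TopHat and Cufflinks are named with the build mm9, without versions, per the submitters' processing notes. The values deposited by the authors are FPKM per transcript with confidence bounds, written inside an attribute text field, and any scaling between libraries is not given in the sources used here. FPKM was summed per gene. Genes reaching 1 FPKM in 2 or more libraries, with any transcript of 300 nt or longer, were tested with limma 3.58.1 (R 4.3.3) with a variance trend on log2(FPKM + 1), which understates changes of low genes. All 8 libraries of the 3 groups entered 1 model, and a gene was called at a Benjamini-Hochberg adjusted p under 0.05. Quotients were tested on log2 after adding 0.1 FPKM, with exact two-sided permutation tests (Python 3.11.15, scipy 1.17.1) adjusted over 4 pairs. Tests were checked on simulated data. The simulation for limma held no scale differences between libraries, unlike these data (scale factors 0.545 to 1.83). It therefore cannot show how the fit behaves under such differences.

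Fragments were recovered from the FPKM and the upper bound for single-transcript genes (all members but Cox7a2l), and 83.9 to 92.8% of a library's low values were whole numbers to within 0.05. Counting intervals (Wilson, 95%) and the 3-fragment limit cover counting error only. The members and lists were chosen with earlier results of these data known. Named genes were the members, Ucp1, the 2 to 4 most abundant called genes of a list (with fewer than 2 called, the 2 most abundant), and the 5 genes most like Cox7a1 and Cox8b, of which 1 is not reported here. Marker genes named for being at 0 or for Mb's call were chosen after their values were seen. The deposited transcripts and the sequences come from different builds (mm9 and GRCm38), and no coordinates were carried between them. Cox6a2, Cox4i1 and Cox4i2 had no promoter entry. Alternatives were other pseudocounts, filters, scalings, group sets, a replicate block, the most abundant transcript, recovered fragments (chosen after seeing the data) and each library left out.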

Additional observations from a re-analysis of the deposited data

How the results depend on the processing

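Depth limits the isoforms near 0, and 2 perigonadal libraries limit that comparison. In inguinal WAT against BAT the count of 3 called members was the same or within 1.5 times under the alternatives run, except that no filter on low values called 0 and leaving out single libraries called 1 to 3 (1 without BAT replicate 2). Cox8a was also lost with a pseudocount of 0.1 (adjusted p = 0.166) and in a fit of only the groups compared (0.0861). In perigonadal WAT against BAT the count of 1 became 0 with a pseudocount of 0.1 or no filter, 2 with a pseudocount of 5, a minimum of 5 FPKM or only the groups compared, and 5 with median-ratio scaling or quantile normalization. Leaving out single libraries gave 0 to 4 (0 without perigonadal replicate 1 or BAT replicate 1, 2 or 3, 2 without inguinal replicate 2, 4 without inguinal replicate 3). The causes were not tested.

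The count of 0 common subunits called became 1 in inguinal WAT against BAT with a pseudocount of 5, a minimum of 5 FPKM, quantile normalization or the replicate block, and in perigonadal WAT 2 with quantile normalization and 1 with only the groups compared.

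Over all genes, the 197 calls of inguinal WAT against BAT became 131 with a pseudocount of 0.1, 124 with a minimum of 5 FPKM, 11 with no filter, 414 with median-ratio scaling, 419 with quantile normalization, and 109 to 336 with single libraries left out. The 464 calls of perigonadal WAT against BAT became 214 with a pseudocount of 0.1, 307 with a minimum of 5 FPKM, 117 with no filter, and 105 to 1326 with single libraries left out. The 63 calls between the white depots became 5 and 146 with pseudocounts of 0.1 and 5, 9 with no filter, 32 with a minimum of 5 FPKM, 28 with scaling, 31 with quantile normalization, 35 with only these groups fitted, and 11 to 220 with single libraries left out.

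With the replicate number as a block, Cox8b passed in perigonadal WAT against BAT (-1.24, adjusted p = 0.000595), so that 2 members were called there, and the exact permutation p of both Cox7a1/Cox7a2 and Cox8b/Cox8a between WAT and BAT became 0.111, the smallest that 18 arrangements allow. The same block turned the perigonadal-against-BAT values of Cox6a1 (-0.15), Cox6b1 (-0.093) and Ucp1 (-0.23), and that of Cox4i1 between the white depots (0.014). Same-numbered libraries did not deviate together in every pair (correlations of their deviations from -0.097 to 0.116), so the numbers are not taken to pair the depots. Each inguinal library did correlate best with the BAT library of its own number, a hint from the data and not from the design.

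Some values changed sign, none of them past the threshold under either setting. Between the white depots these included values away from 0, such as -0.51 for Cox8a, and in inguinal WAT against BAT -0.47 for Ucp1. In inguinal WAT against BAT quantile normalization gave 0.076 for Ucp1, 0.050 for Cox19 and 0.10 for Uqcrc2. In perigonadal WAT against BAT median-ratio scaling and quantile normalization gave -0.68 and -0.43 for Cox6a1, -0.68 and -0.16 for Ucp1, and -0.65 and -0.29 for Cox6b1, and scaling alone -0.25 for Cox19 and -0.40 for Uqcrc2. Between the white depots the same settings gave 0.45 and 0.30 for Cox7a1, 0.37 and 0.22 for Cox7a2l, 0.21 and 0.11 for Cox8b, 0.27 and 0.18 for Cox6a1, 0.53 and 0.40 for Cox4i1, 0.20 and 0.24 for Ucp1, and scaling alone 0.16 for Cox8a. Leaving out single libraries in inguinal WAT against BAT gave -0.31 to 0.25 for Cox19 and -0.29 to 0.17 for Uqcrc2. Leaving out single libraries in perigonadal WAT against BAT gave -0.10 to 0.094 for Cox6a1, -0.16 to 0.16 for Ucp1 and -0.080 to 0.12 for Cox6b1. Leaving out single libraries between the white depots gave -0.45 to 0.083 for Cox7a1, -0.10 to 0.28 for Cox7a2 and -0.31 to 0.088 for Cox4i1. For Cox4i2/Cox4i1, with 1 fragment in all, the log2 difference of WAT minus BAT was -0.63 and turned to 0.11 with a pseudocount of 1, and to between -1.18 and 0.44 with single libraries left out (positive without BAT replicate 3).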
